A study of Mus musculus with 6 samples.

Results

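Id1, Id2, Id3, Smad6, Smad7, Bmp4 and Bmpr1a are genes of the bone morphogenetic protein (BMP) pathway, and their RNA levels were followed while mouse embryonic stem (ES) cells were moved from serum to a serum-free medium. These 7 of the 12626 genes in the expression tables were chosen by name, and all 7 had a value in every sample. RNA-seq was carried out on wild-type J1 cells, an established mouse ES cell line, on 3 days of culture with 2 biological replicates per day, which makes 6 libraries. D0 cells grew in Glasgow medium with 15% fetal bovine serum, whereas D6 and D13 cells had spent 6 or 13 days in 2i+vitC. This medium holds Neuro2 and B27 supplements, the Gsk3 inhibitor CT-99021 (3 µM), the MEK inhibitor PD0325901 (1 µM) and vitamin C (100 µg/mL). LIF (1000 U/mL), the cytokine that sustains self-renewal, was present throughout. Serum, basal medium, both inhibitors and vitamin C changed at the same step, so their effects cannot be told apart, and there was no serum culture kept alongside at D6 or D13.

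BMP ligands bind pairs of type I and type II receptors, which phosphorylate Smad1, Smad5 and Smad9. These join Smad4 and move to the nucleus, where the Id genes are among their best known targets, along with the inhibitory Smads that damp the signal. Id proteins are helix-loop-helix factors without a DNA-binding region that pair with E proteins and keep them off DNA. In serum-grown ES cells, BMP from serum, acting through Id genes, is known to support self-renewal together with LIF, while 2i medium works without added BMP.

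Short stretches of the RefSeq promoters (GRCm38.p6) show which Smad-type sequence lies near each start. A window from 250 bases before to 50 bases after the start was searched on both strands for the motif GGCGCC (rich in G and C, known from BMP-responsive promoters), for the short Smad box CAGAC and for the palindromic Smad element GTCTAGAC, which shares 4 letters with the Smad box. GGCGCC was found in 11.9% of 32851 promoter windows, CAGAC in 49.6% and GTCTAGAC in 0.213%. The stretches below run 5′ to 3′ on the strand of the gene, and capitals mark the match.
Id2 (chr12:25096306-25096335, minus strand, 231 bases before the start): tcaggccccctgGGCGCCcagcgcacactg
Id3 (chr4:136143643-136143672, plus strand, 167 bases before the start): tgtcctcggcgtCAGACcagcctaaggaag
Id3 (chr4:136143742-136143771, plus strand, 68 bases before the start, match on the opposite strand): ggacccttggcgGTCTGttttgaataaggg
Smad6 (chr9:64022045-64022074, minus strand, 4 bases before the start): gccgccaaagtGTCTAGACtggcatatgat
Bmpr1a (chr14:34502727-34502756, minus strand, 198 bases before the start): tgcgcgcgcgccGGCGCCtcttgctcgccc
Id4 (chr13:48260956-48260985, plus strand, 148 bases before the start): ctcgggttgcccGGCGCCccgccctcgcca
Smad9 (chr3:54755519-54755548, plus strand, 51 bases before the start): gcacggccgcctGGCGCCcttccagcgcgg

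In the GENCODE annotation, the Id3 and Smad6 stretches lie in or reach the 5′ UTR exon of a transcript of their own gene, the Id2 and Bmpr1a stretches lie within the gene but outside its exons, and the Smad9 stretch is intergenic. The Id4 stretch lies within the genes A330033J07Rik and Gm49291. The Bmp4 window held none of the 3 motifs, and the promoters of Id1 and Smad7 were not analysed here. A match is a description of letters and not a measured binding site: the window of Id4, whose level did not change detectably, holds the same GC-rich element as that of Id2, which fell.

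The deposited values are log2 CPM, where CPM is the read count of a gene relative to the TMM-scaled size of its library, and CPM below is 2 raised to the deposited value. Reads on genes came to between 73230745 and 83688345 per library, so 3 reads stood for 0.034 to 0.042 CPM. Differences between days were tested with limma over 12928 genes and transposon families, with Benjamini-Hochberg adjustment. Each gene had a single spread shared by all 3 days. The SE and p of a comparison therefore also reflect the day left out of it, and assume an equal spread on every day. A gene is said to have risen or fallen at an adjusted p under 0.05. An exact test of a single gene on 2 against 2 libraries cannot give a two-sided p under 0.333, so none was used. The 3 comparisons between days share libraries. Replicates differed more at D0 and D13 than at D6, with median gaps over all genes of 0.344, 0.378 and 0.145 on the log2 scale. The gap also followed exon length, most of all at D13. There the median log2 difference (replicate 1 minus replicate 2) ran from 0.50 for genes under 2 kb to -0.46 for genes of 8 kb or more. At D0 it ran from 0.15 to -0.21, and at D6 from 0.039 to -0.062. All 8 pluripotency markers were measured, with summed levels of 2597 to 4919 CPM, while mesoderm markers (2 of 8 measured) summed to at most 8.69 CPM and fibroblast markers (4 of 8 measured) to between 7.84 and 33.1 CPM. Primitive endoderm markers (4 of 8 measured) summed to between 72.1 and 127 CPM, of which Lama1 made up 54.3 to 123 CPM, and neuroectoderm markers (3 of 8 measured) to between 97.8 and 209 CPM.

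Id1, Id2 and Id3 all fell from D0 to D6, and their mean log2 differences were the largest of the 7 genes. Whether the 3 decreases differ in size was not tested. Id1 (chr2:152736251-152737410, GRCm38, plus strand) was at 163 CPM in D0 replicate 1 and 23.5 CPM in D0 replicate 2, against 3.16 and 3.33 CPM in the D6 libraries. Both D0 libraries were far above both D6 libraries, even though they also differed from each other. The mean log2 difference was -4.25 ± 0.76 (SE), a 19.1-fold lower level at D6 (limma adjusted p = 0.0039). Id2 (chr12:25093799-25097140, minus strand) was at 108 and 23.6 CPM at D0 and at 3.10 and 2.05 CPM at D6. Again the days did not overlap, and the level was 20.1-fold lower at D6, with a log2 difference of -4.33 ± 0.62 (limma adjusted p = 0.0012). Id3 (chr4:136143497-136145755, plus strand) was at 59.4 and 25.8 CPM at D0 and at 1.36 and 2.65 CPM at D6. Its D0 libraries were closer to each other than those of Id1 and Id2, and the level was 20.6-fold lower at D6, a log2 difference of -4.36 ± 0.62 (limma adjusted p = 0.0012). In bulk RNA, fewer cells with a transcript and less of it per cell cannot be told apart. Some markers of pluripotency and of other cell types moved at the same step, in both directions. Of the 8 pluripotency markers, Klf4, Nanog and Tfcp2l1 rose, Utf1 fell and 4 did not pass. Of the 3 neuroectoderm markers measured, Sox1 rose by 1.23 on the log2 scale (limma adjusted p = 0.025). Nes fell, with a log2 difference of -1.25 (0.011), and Tubb3 did not pass. Neither the Sox1 call nor the Nes call held in every fit with a library left out. The differences in those fits ran from 1.17 to 1.29 for Sox1 and from -1.56 to -0.93 for Nes. Dab2, a primitive endoderm marker, was at 15.9 and 16.8 CPM at D0 and at 0.653 and 1.02 CPM at D6, with a log2 difference of -4.32 (limma adjusted p = 0.00015), and at D13 it was 25.3-fold below D0. The other 3 primitive endoderm markers measured (Lama1, Pdgfra and Sox17) did not pass in any comparison. Of the 4 fibroblast markers, Thy1 fell from D0 to D6 with a log2 difference of -1.89 (limma adjusted p = 0.016, and 0.080 without D0 replicate 1 or 0.14 without D6 replicate 1). Col1a1 and Col1a2 fell from D0 to D13, with log2 differences of -1.98 (0.037) and -3.86 (0.0042), and Pdgfrb did not pass. Col1a1 was at 18.5 and 3.65 CPM in the D0 libraries, and without D0 replicate 1 its difference was -0.81. Its call was lost in that fit and also without either D13 library. These marker genes are named after their values were seen, and their part in the Id decrease was not tested.

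**Figure D1:**
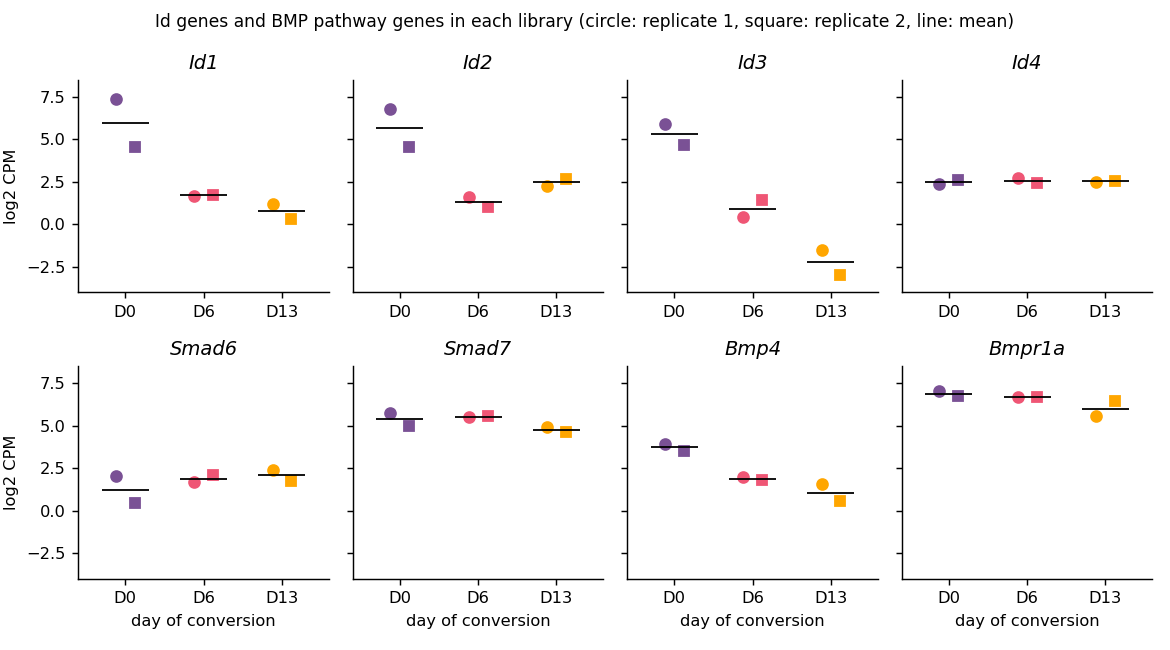
Level in log2 CPM (vertical axis) of the 7 genes and Id4 in each of the 6 libraries by day of conversion (horizontal axis), with circles for replicate 1, squares for replicate 2 and a line at the mean of the day. Id1, Id2 and Id3 sit between 4.56 and 7.35 at D0 and at or below 1.74 at D6, whereas Id4 stays between 2.40 and 2.71 in all libraries.

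The size of the Id1 and Id2 decrease depends on which D0 library is used. D0 replicate 1 was 6.92-fold above replicate 2 for Id1, a gap exceeded by 0.364% of all genes, and 4.59-fold above it for Id2, exceeded by 0.911% of genes. For Id3 the gap was 2.31-fold, exceeded by 6.41% of genes. Without D0 replicate 1 the log2 differences from D0 to D6 were -2.86 for Id1, -3.23 for Id2 and -3.76 for Id3, and without D0 replicate 2 they were -5.65, -5.43 and -4.97. The decrease passed the limma test in all of these fits, with adjusted p between 0.00043 and 0.016. Id4 did not share the D0 gap, with a log2 difference between the replicates of -0.21.

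From D6 to D13, Id3 was the only Id gene to pass the test. It fell again, from 1.36 and 2.65 CPM to 0.357 and 0.127 CPM, which were 25 and 9 reads. Both D13 libraries were below both D6 libraries, by 8.95-fold on average, with a log2 difference of -3.16 ± 0.62 (limma adjusted p = 0.032). This second step of Id3 rests on few reads: it was no longer called without D6 replicate 2 (log2 difference -2.68, adjusted p = 0.17), without D13 replicate 1 (-3.91, 0.10), without D13 replicate 2 (-2.41, 0.062) or with voom precision weights (-3.17, 0.078). Id2, in contrast, stood at 4.82 and 6.43 CPM at D13, above both D6 libraries. The log2 difference of 1.14 ± 0.62 did not pass the test (limma adjusted p = 0.29), and its 95% confidence interval ran from -0.26 to 2.54. Id1 was at 2.34 and 1.25 CPM, below both D6 libraries, again without passing (log2 difference -0.93 ± 0.76, limma adjusted p = 0.49). Both SEs also draw on D0, where the SD of the log2 values was 1.55 for Id2 and 1.97 for Id1. At D6 and D13 this SD was 0.42 and 0.29 for Id2, and 0.052 and 0.64 for Id1. Whether the courses of Id2 and Id3 differ was not tested.

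Over the whole conversion, all 3 genes were lower at D13 than at D0. Id3 had the largest decrease, 184-fold, with a log2 difference of -7.52 ± 0.62 (limma adjusted p = 6.0e-05). Id1 was 36.3-fold lower (log2 difference -5.18 ± 0.76, limma adjusted p = 0.00094) and Id2 9.09-fold lower (log2 difference -3.18 ± 0.62, limma adjusted p = 0.0038). The 95% confidence intervals of these log2 differences were -8.94 to -6.11 for Id3, -6.90 to -3.46 for Id1 and -4.58 to -1.78 for Id2. Leaving out any library moved them to between -8.27 and -6.78 for Id3, -6.58 and -3.78 for Id1 and -4.28 and -2.08 for Id2, and all passed.

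Levels of different genes were compared per kb of exon. At D0, Id1 had the highest mean of the family, 80.4 CPM per kb, followed by Id2 with 27.1, Id3 with 23.8 and Id4 with 1.47 CPM per kb. Since the D0 libraries ranged from 20.3 to 140 for Id1, from 9.68 to 44.5 for Id2 and from 14.4 to 33.2 for Id3, only the position of Id4 at the bottom is outside that spread. At D6 the order by mean was Id1 with 2.80, Id4 with 1.56, Id3 with 1.12 and Id2 with 1.06 CPM per kb. At D13, Id2 came first by mean with 2.31 CPM per kb, Id1 had 1.55, Id4 1.5 and Id3 0.135. Only Id3 stood apart from its neighbour at D13, since the libraries of Id1 (1.07 and 2.02) span those of Id4 (1.48 and 1.51) and reach those of Id2 (1.98 and 2.64).

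The summed level of the 4 Id genes was 219 and 45.9 CPM per kb in the D0 libraries, 6.47 and 6.60 at D6 and 5.68 and 5.30 at D13. Both later days thus lay within a narrow range, far below either D0 library. Id4 made up 0.623% and 3.44% of this sum at D0, and this share was 26.4% and 21.3% at D6 and 26.1% and 28.6% at D13. Id2 took 34.8% and 49.8% of it at D13 and Id3 3.51% and 1.33%.

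**Figure D2:**
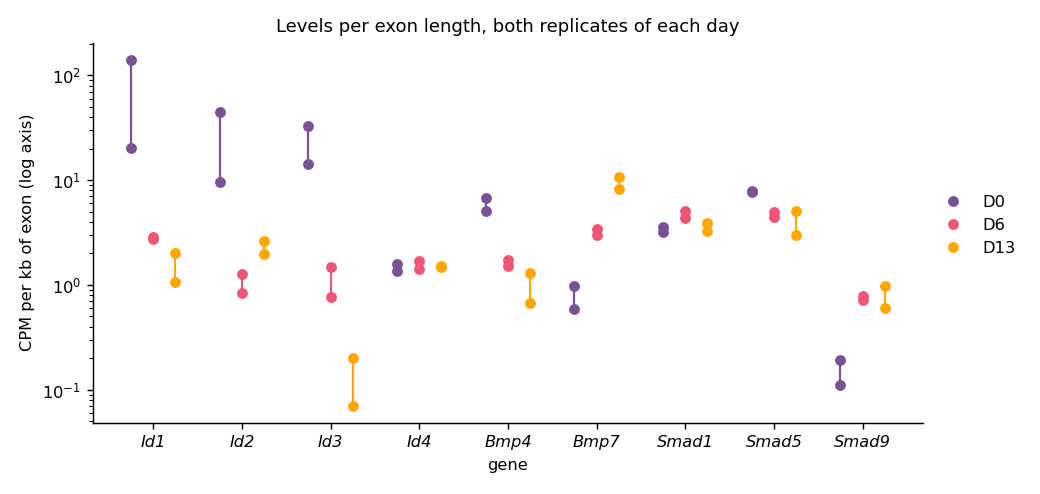
Level per exon length (vertical log axis, CPM per kb of exon) of the Id genes, both ligands and the receptor-activated Smads of the BMP pathway, with a point for each replicate and a line joining the 2 replicates of a day. Id1, Id2 and Id3 drop below 3 CPM per kb at D6 while Id4 stays near 1.5, and Bmp7 climbs from a mean of 0.780 at D0 to 9.51 at D13.

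Id4, a family member that also binds E proteins, did not change detectably between any days. It was at log2 CPM 2.40 and 2.61 on D0, 2.71 and 2.44 on D6 and 2.51 and 2.54 on D13, so that the days overlapped. Log2 differences were 0.07 between D0 and D6 (limma adjusted p = 0.89) and 0.03 between D0 and D13 (0.95). The E proteins, the partners that Id proteins sequester, did not pass in any comparison of the deposited values (0 of 3 in limma, and at an unadjusted p under 0.05 Tcf4 from D6 to D13 and Tcf12 from D0 to D13). Their log2 differences from D0 to D6 were -0.11 for Tcf3, 0.25 for Tcf4 and 0.40 for Tcf12, and from D0 to D13 Tcf12 came closest with 0.80 (limma adjusted p = 0.056). Tcf12 has 15.5 kb of exon, and with the exon length trend removed it passed, with 0.60 from D0 to D6 (0.035) and 1.23 from D0 to D13 (0.00092). With median centring or with the replicate block, 1 of the 3 E proteins also rose from D0 to D13.

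The inhibitory Smads, themselves targets of the pathway, did not share the decrease of the Id genes. Smad6 (chr9:63953076-64022059, minus strand), which blocks BMP receptor signalling, was at 4.17 and 1.35 CPM at D0, 3.16 and 4.21 CPM at D6 and 5.35 and 3.31 CPM at D13, and the days overlapped. The log2 difference was 0.62 ± 0.54 between D0 and D6 (limma adjusted p = 0.46) and 0.83 ± 0.54 from D0 to D13 (0.25), and the first turned to -0.19 without D0 replicate 2. Without D0 replicate 1, the D0 to D13 difference was 1.64 and passed (limma adjusted p = 0.028). Smad7 (on chromosome 18), which inhibits both BMP and TGF-β receptors, was at 54.4 and 31.0 CPM at D0, 45.3 and 47.1 CPM at D6 and 29.8 and 24.8 CPM at D13. D0 and D6 overlapped, whereas both D13 libraries were below the rest. The log2 difference from D0 to D6 was 0.17 ± 0.29 (95% confidence interval -0.50 to 0.84, limma adjusted p = 0.73), and it turned to -0.24 without D0 replicate 2. From D6 to D13 it was -0.77 ± 0.29 (0.15) and from D0 to D13 -0.59 ± 0.29 (0.13), which passed only without D0 replicate 2 (log2 difference -1.0, adjusted p = 0.022).

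The ligand genes moved in opposite directions. Bmp4 (chr14:46383520-46390669, minus strand) was at 15.1 and 11.5 CPM at D0, 3.91 and 3.43 CPM at D6 and 2.92 and 1.5 CPM at D13. The 3 days did not overlap and the D0 replicates were close. Bmp4 fell 3.6-fold from D0 to D6, a log2 difference of -1.85 ± 0.39 (limma adjusted p = 0.0096), and 6.30-fold from D0 to D13, a log2 difference of -2.66 ± 0.39 (limma adjusted p = 0.0010). The D0 to D6 call was narrowly lost without D0 replicate 1 (log2 difference -1.66, adjusted p = 0.053) and without D6 replicate 2 (-1.75, 0.055), and the step from D6 to D13 did not pass (-0.81, 0.25). Bmp7, a ligand of the same family, was at log2 CPM 1.25 and 1.96 on D0, 3.77 and 3.6 on D6 and 5.43 and 5.05 on D13. It rose at each step, by 2.08 on the log2 scale up to D6 (limma adjusted p = 0.0019) and by 1.56 from D6 to D13 (0.035). The call of the second step was lost without D6 replicate 1 (log2 difference 1.64, adjusted p = 0.15), D6 replicate 2 (1.48, 0.27) or D13 replicate 1 (1.37, 0.17). Per kb of exon, mean Bmp4 was above mean Bmp7 at D0, 5.92 against 0.780 CPM per kb, and below it at D13, 0.982 against 9.51 CPM per kb. The other 9 ligand genes listed were not analysed here.

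Bmpr1a (chr14:34410734-34503341, minus strand), the type I receptor for BMP2 and BMP4, had the highest level of the 7 genes per kb of exon at D6 and D13, with means of 16.1 and 10.5 CPM per kb. It was at 132 and 106 CPM at D0, 103 and 101 CPM at D6 and 46.5 and 86.4 CPM at D13. D6 was just below D0, and the D13 libraries were the lowest but differed from each other by 1.86-fold. The log2 difference was -0.21 ± 0.30 from D0 to D6 (95% confidence interval -0.89 to 0.47, limma adjusted p = 0.67) and -0.90 ± 0.30 from D0 to D13, a 1.87-fold decrease (limma adjusted p = 0.039). The D0 to D13 call was lost when D13 replicate 1 was left out (log2 difference -0.45, adjusted p = 0.15), and also without either D0 library (0.16 and 0.068) or either D6 library (0.053 for both). Bmpr1a has 6.35 kb of exon, and its D13 libraries differed by -0.89 on the log2 scale (replicate 1 minus replicate 2), in the direction of the other long genes. With the trend on exon length removed, the D0 to D13 difference was -0.73 (limma adjusted p = 0.042).

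The 7 genes and the role lists below were chosen with earlier results of these data known, so the counts describe them and test nothing. Counted together, 4 of the 7 genes fell from D0 to D6 and 0 rose, where 10.4% of all genes fell and 13.8% rose. Every deposited gene had at least 6 reads in both D6 libraries, so genes silent at D6 are missing from these shares. Id1, Id2 and Id3 were also past a 4-fold change, as were 3.9% of all genes among those that fell. From D6 to D13, 1 of 7 (Id3) fell and 0 rose, against 2.76% and 1.43% of all genes, and Id3 was past 4-fold, as were 0.697% of all genes. From D0 to D13, 5 of 7 fell and 0 rose, against 21.8% and 20.9%, and 4 of these (the 3 Id genes and Bmp4) were past 4-fold, against 6.01% of all genes. The median log2 difference of the 7 genes was -1.85, -0.77 and -2.66 in these comparisons, beside -0.01 over all genes in each. At an unadjusted p under 0.05 in limma, 0 of the 7 genes were higher on the later day and 4, 3 and 5 were lower, the 3 being Id3, Smad7 and Bmpr1a from D6 to D13. With voom weights, 0 rose as well.

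**Figure D3:**
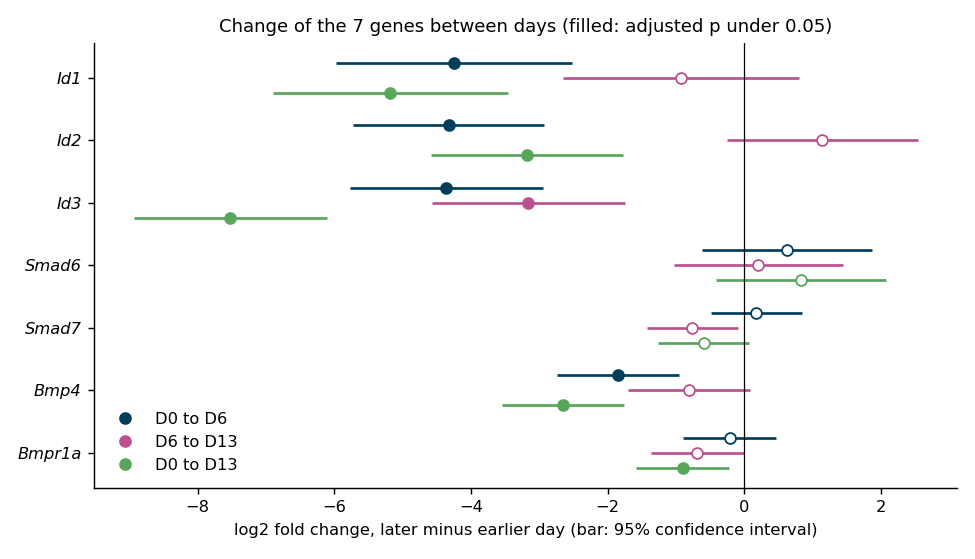
Log2 fold change of each of the 7 genes (horizontal axis, later minus earlier day) in the 3 comparisons, with the limma estimate as a point, its 95% confidence interval as a bar and a filled point where the adjusted p is under 0.05. The estimates of Id1, Id2 and Id3 from D0 to D6 lie between -4.36 and -4.25, and from D0 to D13 they spread from -3.18 for Id2 to -7.52 for Id3.

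The pathway around these genes did not move in a single direction. Of 91 further genes listed by role, 56 were tested and the rest were not analysed here. From D0 to D6, 8 rose and 11 fell, which is 33.9% of them against 24.2% of all genes called in either direction, and from D0 to D13, 11 rose and 14 fell, 44.6% against 42.7%. From D6 to D13, 1 rose (Bmp7) and 1 fell (Ctdsp1), 3.57% against 4.18%. Their median log2 difference was 0.06 from D0 to D6 and -0.10 from D0 to D13. With the exon length trend removed, the D0 to D13 split became 16 up and 12 down.

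Among receptors and co-receptors, 2 of 8 genes beside Bmpr1a rose from D0 to D6 in limma and 0 fell, where 13.8% of all genes rose and 10.4% fell. At an unadjusted p under 0.05, 3 rose and 0 fell. Rgma, which encodes a BMP co-receptor, went from log2 CPM 0.45 and 0.52 at D0 to 4.38 and 4.23 at D6 and 4.73 and 4.06 at D13. Both later days were far above D0, by 3.82 on the log2 scale at D6 (limma adjusted p = 9.1e-05) and 3.91 at D13 (5.3e-05). Eng, the co-receptor endoglin, rose by 1.48 (0.0018) and, from D0 to D13, by 0.81 (0.020), a call that was lost without D0 replicate 2, either D6 library or D13 replicate 1 (adjusted p between 0.054 and 0.070). Amhr2, the type II receptor of anti-Müllerian hormone, rose from D0 to D13 by 1.82 on the log2 scale (limma adjusted p = 0.0049).

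Of 9 extracellular antagonists and modulators, 3 fell from D0 to D6 in limma and 0 rose, where 10.4% of all genes fell and 13.8% rose, and these counts were also 3 and 0 at an unadjusted p under 0.05. Fstl1, a follistatin-like secreted protein, was at log2 CPM 6.19 and 6.0 on D0, 4.37 and 3.87 on D6 and 2.97 and 3.22 on D13. It was thus lower on each later day, by -1.97 on the log2 scale at D6 (limma adjusted p = 0.00094) and by -3.0 at D13 (8.3e-05). Crim1, a membrane protein that binds BMPs, had log2 differences of -2.00 (0.0035) and -2.88 (0.00036), and Fstl3, an activin and BMP antagonist, of -2.03 at D6 (0.024), which did not pass without D0 replicate 1 (0.11) or either D6 library (0.089 and 0.10). Chrd, the BMP antagonist chordin, rose by 1.49 from D0 to D13 (0.019), and Twsg1, which acts with chordin, by 1.05 (0.0049). The Chrd call was lost without D0 replicate 2 (0.077) or D13 replicate 1 (0.12). Of the 3 proteases that process BMPs or chordin, Pcsk6 rose by 1.32 from D0 to D6 (0.0062), and Tll1 fell from D0 to D13 with a log2 difference of -1.56 (0.021), but not without D0 replicate 1 (0.072) or D13 replicate 1 (0.086). Furin did not pass (0.46 from D0 to D6).

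The Smads that carry the BMP signal were present on all days. Smad1 was at log2 CPM 4.33 and 4.48 on D0, 4.78 and 4.98 on D6 and 4.37 and 4.62 on D13, and did not pass in any comparison. Smad5 was at 5.89 and 5.82 on D0, 5.05 and 5.20 on D6 and 4.49 and 5.23 on D13. It fell from D0 to D13 with a log2 difference of -1.0 (limma adjusted p = 0.019), while the D0 to D6 difference of -0.73 did not pass (0.094). The call was lost without D0 replicate 1 (0.071), D0 replicate 2 (0.059) or D13 replicate 1 (0.063). Smad9 was at 0.03 and -0.76 on D0, 2.06 and 1.95 on D6 and 1.68 and 2.39 on D13. It rose by 2.37 on the log2 scale up to D6 (limma adjusted p = 0.0046) and by 2.40 from D0 to D13 (0.0028), and per kb of exon it stayed below the others, with 0.749 CPM per kb at D6 against 4.71 for Smad1 and 4.72 for Smad5. The common partner Smad4 did not pass (log2 difference -0.28 from D0 to D6), and of the Smads of the TGF-β and activin branch Smad3 rose by 1.77 (adjusted p = 0.0019) while Smad2 did not pass (log2 difference 0.04, adjusted p = 0.94).

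Of 17 regulators of the Smads, 4 fell and 1 rose from D0 to D6, where 10.4% of all genes fell and 13.8% rose. From D0 to D13, 8 fell and 2 rose, where 21.8% of all genes fell and 20.9% rose. With the exon length trend removed, these counts were 3 down and 2 up, and 6 down and 4 up. Without D13 replicate 1, 4 fell and 1 rose from D0 to D13, and over all libraries left out between 4 and 9 fell, while 2 to 4 fell from D0 to D6. Skil, a corepressor that binds Smads, was at log2 CPM 8.72 and 8.10 on D0, 5.92 and 5.88 on D6 and 5.23 and 6.27 on D13. Its level was thus lower in all later libraries, with log2 differences of -2.51 (limma adjusted p = 0.0011) and -2.66 (0.00054). Ctdspl, of the family of small phosphatases that act on Smads, had differences of -2.84 (0.0019) and -3.98 (0.00022). Zfyve16, an endosomal Smad-binding protein, fell by 1.28 from D0 to D6 (0.038), a call that was lost without either D0 library or either D6 library (0.072 to 0.16). Tob1, an antiproliferative protein that binds Smads, rose by 1.43 (0.0050) from D0 to D6. Of the DNA-binding partners, Zeb1 rose by 2.08 from D0 to D6 (0.010, and 0.057 without D0 replicate 1) and Hivep1 and Hivep2 did not pass.

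**Figure D4:**
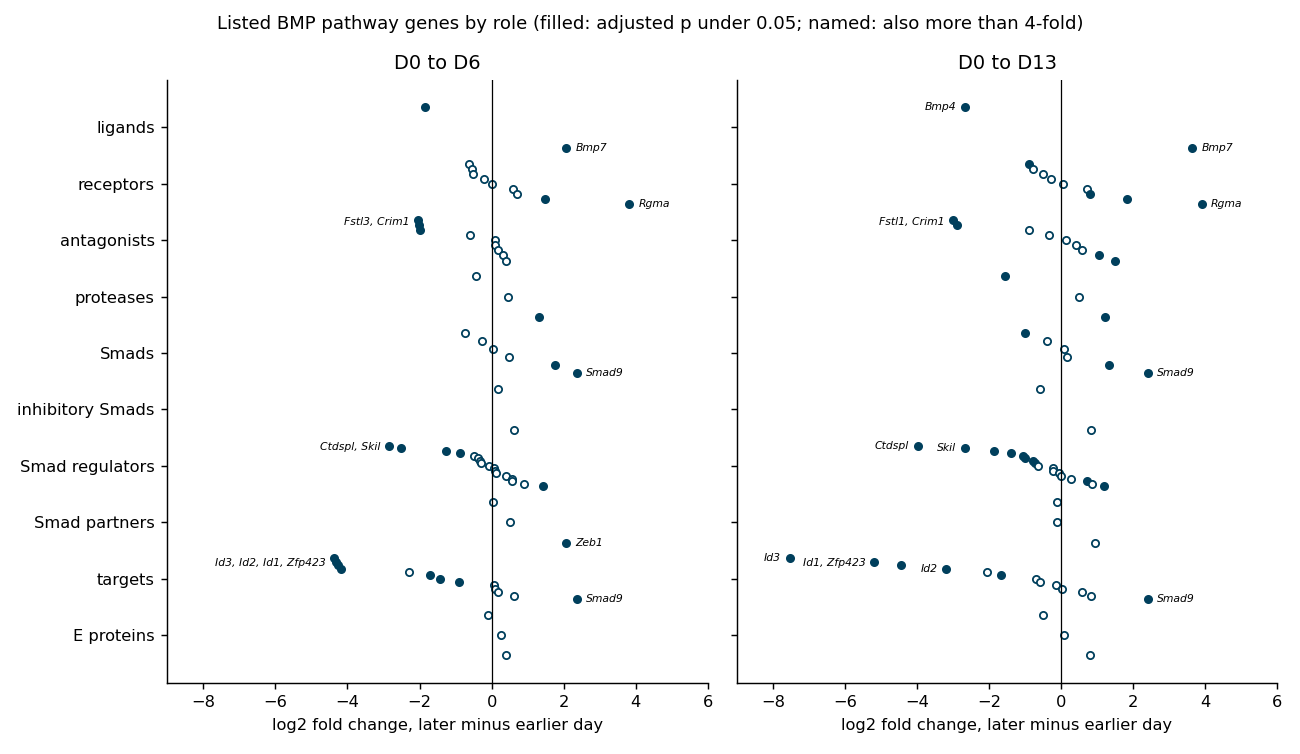
Log2 fold change (horizontal axis, later minus earlier day) of the tested BMP pathway genes, including the 7, by role, for D0 to D6 and D0 to D13. Each point is a gene, filled where the limma adjusted p is under 0.05 and named where the change is also more than 4-fold. Ligands hold Bmp4 on the left and Bmp7 on the right, and the targets run from Id3 on the left (-4.36 and -7.52) to Smad9 on the right (2.37 and 2.40).

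Other listed targets of BMP signalling did not all follow Id1, Id2 and Id3. Of 8 tested, 4 fell from D0 to D6 (Zfp423, Dusp9, Hey1 and Junb), Smad9 rose, and Bambi, Id4 and Tbx20 did not pass, where 10.4% of all genes fell and 13.8% rose. Without D0 replicate 1, D6 replicate 1 or D6 replicate 2, 2 of these 8 fell. Zfp423, Dusp9, Hey1, Junb, Bambi and Tbx20 are named for D0 to D6 after their values were seen. From D0 to D13, 2 of the 8 fell and 1 rose, where 21.8% of all genes fell and 20.9% rose. Zfp423, a zinc finger partner of Smads, was at log2 CPM 5.93 and 4.62 on D0, 0.88 and 1.30 on D6 and 0.39 and 1.27 on D13. Its change was of the size of that of the Id genes, with log2 differences of -4.19 (limma adjusted p = 0.00044) and -4.45 (0.00023). Dusp9, a phosphatase of ERK, was lower at D6 than at D0 by -1.72 on the log2 scale (0.013), and from D0 to D13 the difference was -0.14, which did not pass. Without D0 replicate 1, its D0 to D6 difference was -1.09 and the call was lost. The gap between the D0 libraries was unequal among these 8 targets: 6 were higher in D0 replicate 1, where 45.4% of all genes were, and 3 (Tbx20, Zfp423 and Dusp9) by more than 1 on the log2 scale, where 3.48% of all genes were. The median gap of the 8 was 0.53 on the log2 scale, and the lowest was that of Id4, -0.21. Fibroblast markers summed to 33.1 CPM in D0 replicate 1 and 13.5 CPM in D0 replicate 2, and pluripotency markers to 2597 and 3329 CPM. Neuroectoderm markers summed to 209 and 156 CPM, mesoderm markers to 8.69 and 5.25 CPM and primitive endoderm markers to 72.1 and 115 CPM. Of the fibroblast markers, Col1a1 was at 18.5 and 3.65 CPM, Thy1 at 6.50 and 3.41, Col1a2 at 4.61 and 3.08 and Pdgfrb at 3.39 and 3.35. The part of these differences in the Id levels was not tested.

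Genes with the most similar course were sought among 11933 genes by the root-mean-square distance between log2 profiles over the 6 libraries, each centred on its own mean, so that a smaller distance is a closer likeness. For Id1 these were Coch (0.378), Trh (0.604) and Cdkn1c (0.612), where the median gene was at 2.42. For Id2 they were S100a6 (0.414), Pim2 (0.421) and Syt11 (0.472), with a median of 1.96. For Id3 they were Myc (0.531), Irgm1 (0.701) and Enox1 (0.819), with a median of 3.15. The distances to the Id genes were larger than those of the flatter genes, for which many genes lie close. Bmp4 was nearest to Trip6 (0.209), Dppa4 (0.225) and Slc25a27 (0.232), and Bmpr1a to Cxadr (0.050), Ctnnd1 (0.0681) and Kbtbd8 (0.0704). Smad7 was nearest to Men1 (0.112), Tuba1b (0.122) and Cep19 (0.123), and Smad6 to Dpy30 (0.187), Uqcrh (0.203) and Dad1 (0.206). The distance counts gaps between replicates as well as changes between days. For Smad6 the D0 gap was 1.63 on the log2 scale, while its day means were 1.24, 1.87 and 2.07. How much of each likeness lies in the gaps was not tested.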

How the data were processed

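RNA-seq libraries were made by the authors from DNase-treated RNA with a stranded mRNA kit and sequenced as paired ends. Per the labels and the submitters' processing notes, which name TopHat2 2.0.6, HTSeq 0.6.1 and Bowtie 1.0.0, reads were counted on RefSeq genes (mm10) and on transposon families. The authors normalised both together by TMM and deposited log2 CPM from voom. Samples were grouped by day from their labels.

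Reads were read off the gene values, since voom adds 0.5 read before scaling and 100% of the values came out whole within 0.05 read. The lowest gene was at 7 and 6 reads in the D6 libraries, and at 0 to 2 in the others. The log2 values were tested with limma 3.58.1 (R 4.3.3) in a single fit of all 6 libraries, with a mean per day, a mean-variance trend and no block. On simulated data, 100% of 200 genes changed by 3 on the log2 scale were called from D0 to D6. Of the 12928 simulated rows, 15 without a change were called as well. The simulated spread was the same on every day, unlike that of these libraries. Recovery for genes with a wide D0 gap, such as Id1, was therefore not tested. Tables and figures were made with Python 3.11.15, numpy 2.4.6, pandas 2.3.3 and matplotlib 3.10.9.

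The members and gene lists were chosen with earlier results of these data known. Genes named are the 7, all genes of lists with at most 8 genes of at least 10 reads in 2 samples, otherwise the 3 called with the largest change per direction, and the 3 nearest in profile. Gene names lack every capital G, 464 start in lower case and 104 rows share a name; such rows were tested but not named. Positions and exon lengths are from GENCODE vM21 (GRCm38), while counting used RefSeq. The alternatives were other filters, scales, adjustments, weights and thresholds, fits of 2 days, a replicate block and each library left out. Removal of the exon length trend (11458 genes with a length) was added after seeing the data.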

Additional observations from a re-analysis of the deposited data

How the results depend on the processing

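Of 378 log2 differences of the 7 genes recomputed under the alternatives, 352 kept their direction and their side of the threshold, 19 lost the call, 3 gained it and 4 changed sign. The sign changes were those of Smad6 (-0.19) and Smad7 (-0.24) between D0 and D6 without D0 replicate 2, and of Smad6 between D6 and D13 without D6 replicate 1 (-0.0014) or D13 replicate 1 (-0.14). Over all libraries left out, these differences ranged from -0.19 to 1.44, from -0.24 to 0.58 and from -0.14 to 0.55. Leaving out 1 library gave between 3 and 4 of the 7 genes called up to D6, 0 and 1 for D6 to D13 and 4 and 5 over the whole conversion, and between 13 and 21, 0 and 5, and 17 and 27 of the other pathway genes. The D6 to D13 call of Id3 was absent with log2(CPM + 1) (0 genes called, log2 difference -1.25, limma adjusted p = 0.10), with voom weights (0) and at an adjusted p under 0.01 (0). Without D13 replicate 2, the gene called there was Bmpr1a (-1.13, limma adjusted p = 0.037). The Bmpr1a call from D0 to D13 was absent in a fit of only those days (0.052) and without a mean-variance trend (0.070). For the other pathway genes, an adjusted p under 0.01 gave 12, 0 and 16 called (D0 to D6, D6 to D13 and D0 to D13) and a 4-fold minimum 9, 0 and 8, fewer by construction. With the exon length trend removed, 6 were called from D6 to D13, for which the cause was not tested. Over all genes, the gaps between replicates correlated with r of -0.13 (D0 and D6), 0.33 (D6 and D13) and 0.14 (D0 and D13). Whether same-numbered libraries belong together was not tested, and the main fit had no block. With the replicate block, 6 of the other pathway genes were called from D6 to D13 and the calls of the 7 genes were the same, for example Id3 from D6 to D13 at an adjusted p of 0.0064. Median centring shifted no library by more than 0.031 on the log2 scale. Among the 7 genes, counts were lowest for Id3 at D13, with 25 and 9 reads.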

Other observations

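The D0 libraries differed to varying degrees in the targets of BMP signalling. Tbx20, a T-box factor, was at 792 reads in D0 replicate 1 and 111 in replicate 2, a log2 gap of 2.98, and its D0 to D6 difference of -2.29 did not pass the test (limma adjusted p = 0.084). Zfp423 had a gap of 1.31 and Dusp9 of 1.27, beside 2.79 for Id1, 2.20 for Id2, 1.63 for Smad6 and 1.21 for Id3. The gap was 0.81 for Smad7, 0.79 for Smad9, 0.27 for Junb, 0.18 for Bambi, -0.07 for Hey1 and -0.21 for Id4. Outside the targets, Bmp4 and Bmpr1a had gaps of 0.39 and 0.32, and markers of other states had gaps such as 2.35 for Col1a1 and -1.48 for Esrrb. These genes were singled out after their values were seen.

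The log2 CPM of Dusp9 was 7.0 and 5.73 on D0, 4.44 and 4.85 on D6 and 6.45 and 6.0 on D13, and the D6 to D13 difference of 1.58 did not pass (limma adjusted p = 0.057).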
